A study of Mus musculus with 6 samples.

Results

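The proteasome genes examined here are the mouse genes whose symbols run from Psma to Psmg followed by a number. They were taken by symbol from the probe names of an Agilent mouse whole-genome array. The rule found 65 probes for 43 genes, out of 27946 genes on the array, and each gene was read by its brightest probe over the 6 arrays. Of the 43, 18 encode subunits of the 20S core (Psma and Psmb), 21 carry regulatory particle symbols (Psmc and Psmd) and 4 are activators or an inhibitor (Psme and Psmf). Psmb11, Psme2 and Psmg1 to Psmg4 matched no probe name. Psmc3ip was taken by its name alone: it is a meiotic recombination factor and no proteasome subunit.

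The study asked which RNAs are bound by DAZL, a germ cell RNA-binding protein. All 3 groups came from the same kind of culture: mouse ES cells derived from the V6.5 line (strain C57BL/6 129SV mixed) that express Dazl-GFP-V5, depleted of feeder cells and differentiated for 12 days into in vitro PGCs (primordial germ cells). The input group is total RNA with no antibody, the PABP1 IP is RNA recovered with an antibody to the poly(A)-binding protein PABP1, and the GFP IP is RNA recovered with an antibody to the GFP tag on DAZL. UV crosslinking is part of the protocol of all 3 groups. Each group has 2 one-colour arrays, 1 per sample. Neither the promoter that drives the tagged gene nor the number of ES cell clones is given in the sources used here, and an IP from cells without the tag was not analysed here. The labels do not say whether the 2 samples of a group came from separate cultures, so the p-values reflect the scatter of these arrays alone, which may be technical.

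The proteasome is the main ATP-dependent protease of the cytosol and nucleus. Its barrel-shaped 20S core stacks rings of alpha subunits, which gate the entry, around rings of beta subunits, a few of which cut proteins. The 19S regulatory particle caps the core, binds ubiquitin-tagged proteins, removes the ubiquitin and unfolds the substrate with a ring of ATPases. Immune cells and cells exposed to interferon swap the catalytic beta subunits for immunoproteasome forms, and male germ cells use an alternative alpha subunit, PSMA8. Because an RNA-IP measures how much of an mRNA was recovered, a difference between an IP and input is a difference in recovered RNA relative to the rest of the array.

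Levels are given as log2 signal minus the 75th percentile of the array, so 0 stands for the signal at that percentile. Differences are log2 differences of group means, and the value after ± is the standard error (SE) from limma with n = 2 arrays per group. Genes past a Benjamini-Hochberg adjusted p of 0.05 over all 14968 genes tested are called higher or lower. All 43 proteasome genes passed the filter on dim probes, and 42 were well above background on all 6 arrays. Psmb8 was above background on 5, the exception being an input array. The share of spots well above background ran from 41.5 to 52.6% over the arrays, and none was saturated. The pooled SD between replicate arrays of a proteasome gene was 0.22. The mRNA for the tagged protein, Dazl, had levels of -0.18 and -0.31 in input, -2.08 and -2.05 in the PABP1 IP, and 3.20 and 3.91 in the GFP IP. Of 12 germ cell markers 11 had a probe and 10 were above background in at least 1 group, while Ddx4, a marker of later germ cells, was above background on 2 arrays. Markers of heart and smooth muscle were also present: 7 of 8 were above background in at least 1 group.

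Most proteasome mRNAs were lower in the GFP IP than in the PABP1 IP. In that comparison 36 of the 43 genes were lower, 4 were higher (Psma8, Psmd2, Psme4 and Psmd1) and 3 did not pass. Over all genes tested 41.3% were lower and 22.3% higher. Both GFP IP arrays lay below both PABP1 IP arrays for 36 of the 43 genes and above both for 6, against 53% and 28.4% of all genes. The median difference of the 43 genes was -1.45, against -0.58 for all genes tested. Cyclic loess, which fits the arrays to each other across the range of brightness, gave 7 higher and 20 lower, with 30.9% of all genes higher and 27.5% lower. Quantile normalization, which gives every array the same distribution of signals, gave 6 higher and 22 lower, with 26.7% of all genes higher and 32.9% lower. Scaling to the 8 spike-in control probes gave 36 lower and 0 higher (limma, also 0 higher at an unadjusted p under 0.05), with 67.1% of all genes lower.

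Against input, more of these genes were higher than lower in the PABP1 IP, and more were lower than higher in the GFP IP. Both PABP1 IP arrays lay above both input arrays for 31 of the 43 genes (43.2% of all genes) and below both for 9 (35.3%). Both GFP IP arrays lay above both input arrays for 3 of the 43 genes (26.9% of all genes) and below both for 35 (55.9%). The comparisons share the input arrays, so their values are given side by side and are not independent. In the PABP1 IP 23 of the 43 genes were higher than in input, 5 were lower and 15 did not pass, with 30.1% of all genes higher and 23.8% lower. Their median difference was 0.69, against 0.12 for all genes. In the GFP IP 2 of the 43 were higher than in input (Psma8 and Psme3), 25 were lower and 16 did not pass, with 18.5% of all genes higher and 36.6% lower. Their median difference was -0.75, against -0.51 for all genes. The proteasome genes thus stood at -0.24 relative to all genes; with normexp background correction this value was 0.11, and without the filter on dim probes 0.31.

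The counts against input moved with the scaling. For the GFP IP they were 4 higher and 14 lower with cyclic loess (24.7% and 24.3% of all genes), 2 and 9 with scaling to each array's median (24.2% and 11.6%), 5 and 17 with normexp (19.3% and 45.9%), and 2 and 0 with spike-in scaling (limma, also 0 lower at an unadjusted p under 0.05, with 21.9% and 1.89% of all genes). For the PABP1 IP they were 14 higher and 11 lower with cyclic loess (26.4% and 28.6% of all genes), 16 and 13 with quantile normalization (28% and 26.9%), and 40 and 0 with spike-in scaling (again 0 lower at an unadjusted p under 0.05, with 82.8% and 1.39% of all genes). The median of all genes moved between scalings as well, by -1.33 to 0.53 for the difference between the IPs, 0.26 to 0.92 for the GFP IP against input and -0.14 to 2.24 for the PABP1 IP against input. Without an input array fewer genes passed against input, among the 43 and among all genes alike. Without input replicate 1 or 2 the median of the 43 relative to all genes was -0.18 or -0.27 in the GFP IP. In the PABP1 IP it was 0.59 or 0.49. Without PABP1 IP replicate 1 or 2 it was 0.56 or 0.44 in the PABP1 IP.

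**Figure D1:**
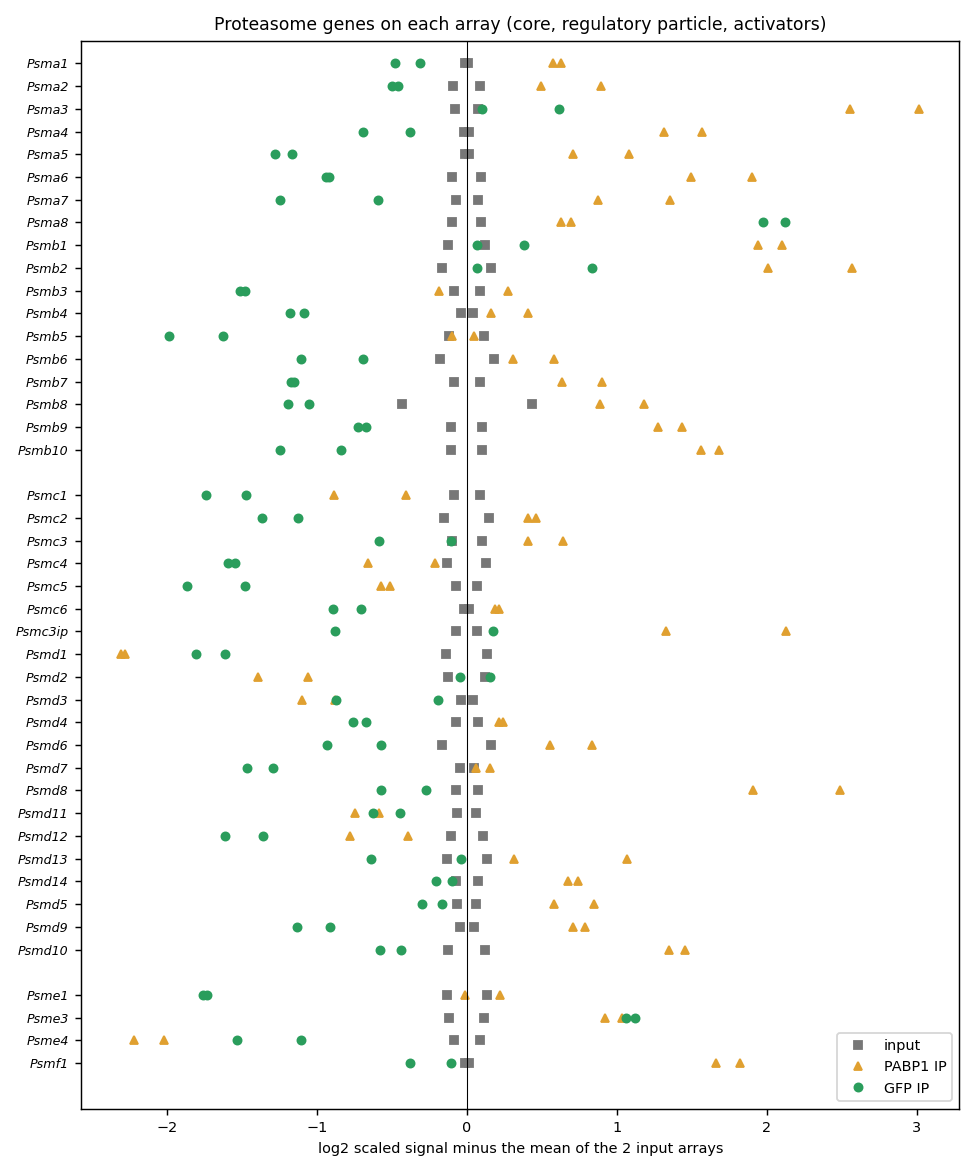
Each row is a proteasome gene and each symbol an array: grey squares are input, orange triangles the PABP1 IP and green circles the GFP IP. The horizontal axis is the log2 scaled signal minus the mean of the 2 input arrays. Green circles lie left of both orange triangles for 36 genes, and Psma8 is the gene whose green circles lie farthest right of input.

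The 7 alpha subunits of the standard core, Psma1 to Psma7, form the outer rings and the gate of the barrel. In the PABP1 IP all 7 were higher than in input, by 0.60 (Psma1) to 2.79 (Psma3), against 30.1% of all genes. In the GFP IP 3 of the 7 (42.9%) were lower than in input (Psma5, Psma6 and Psma7), near the 36.6% of all genes. All 7 were lower in the GFP IP than in the PABP1 IP, by 0.99 (Psma1) to 2.63 (Psma6) on the log2 scale. Of all genes 41.3% were lower there. With quantile normalization and with cyclic loess 3 of the 7 (Psma3, Psma4 and Psma6) were still higher in the PABP1 IP than in input and 4 (these and Psma5) lower in the GFP IP than in the PABP1 IP, and Psma2 turned to 0.21 and 0.20 between the IPs. The PABP1 call of Psma1 was lost in 4 of the 6 fits that left out 1 array and that of Psma2 in 5, and the GFP IP calls of Psma5, Psma6 and Psma7 against input were lost with cyclic loess (adjusted p = 0.0567, 0.104 and 0.641).

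Psma3 stood at 1.98 and 2.13 in input, 4.60 and 5.07 in the PABP1 IP, and 2.66 and 2.15 in the GFP IP. Both PABP1 IP arrays were above all others, and the GFP IP arrays lay above input, the lower of them only narrowly. It was 6.90-fold higher in the PABP1 IP than in input (2.79 ± 0.26, adjusted p = 0.00125) and lower in the GFP IP than in the PABP1 IP (-2.43 ± 0.26, adjusted p = 0.00104). Among the 14968 genes its PABP1 difference from input stood at percentile 98.9. Psma6, another alpha subunit, had 5.01 and 4.82 in input, 6.82 and 6.41 in the PABP1 IP, and 3.98 and 4.00 in the GFP IP, so the 3 groups did not overlap. It was lower in the GFP IP than in the PABP1 IP by -2.63 ± 0.20 (adjusted p = 0.00051).

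Psma8, the alternative alpha subunit of male germ cells, went the other way. It stood at 2.61 and 2.41 in input, 3.21 and 3.14 in the PABP1 IP, and 4.64 and 4.49 in the GFP IP. Both GFP IP arrays lay above both PABP1 IP arrays, which lay above both input arrays. The GFP IP level was 4.14-fold that of input (2.05 ± 0.16, adjusted p = 0.00161) and 2.62-fold that of the PABP1 IP (1.39 ± 0.16, adjusted p = 0.00134). Psma8 was the core gene that differed in direction from the other 17 in that comparison; with cyclic loess Psma2 and Psmb6 lay above 0 too, without a call. Its difference from input stood at percentile 95.7 of all genes. Its call against input held under each of the 5 other scalings and background corrections, whereas with spike-in scaling its difference from the PABP1 IP was 0.06 (adjusted p = 0.925). The PABP1 IP was also higher than input (0.66 ± 0.16, adjusted p = 0.0205), a call lost in 4 of 6 fits that left out 1 array. The probe was designed on a cDNA clone and 1 probe reads the gene.

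The beta subunits form the inner rings. Psmb1 and Psmb2, which carry no catalytic site, were higher in the PABP1 IP than in input. Psmb1 stood at 4.98 and 4.74 in input, 6.80 and 6.96 in the PABP1 IP, and 5.25 and 4.93 in the GFP IP. Psmb2 stood at 1.36 and 1.03 in input, 3.20 and 3.76 in the PABP1 IP, and 2.03 and 1.26 in the GFP IP. For both genes the PABP1 IP arrays were the highest and the GFP IP arrays overlapped the input arrays. Psmb1 was higher in the PABP1 IP than in input by 2.02 ± 0.20 (adjusted p = 0.00133) and Psmb2 by 2.29 ± 0.34 (adjusted p = 0.00402). The other structural beta subunits, Psmb3 and Psmb4, did not pass in that comparison (0.04 and 0.28), and were lower in the GFP IP than in input by -1.50 and -1.13. All 4 were lower in the GFP IP than in the PABP1 IP, by -1.84 to -1.42, against 41.3% of all genes. With cyclic loess the calls of Psmb3 and Psmb4 between the IPs were lost (-0.032 and -0.040), and Psmb3 was lower in the PABP1 IP than in input (-0.58, adjusted p = 0.0201).

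The catalytic beta subunits Psmb5, Psmb6 and Psmb7 carry the chymotrypsin-like, caspase-like and trypsin-like sites. All 3 were lower in the GFP IP than in input, against 36.6% of all genes. Psmb5 stood at 7.67 and 7.44 in input, 7.60 and 7.45 in the PABP1 IP, and 5.93 and 5.57 in the GFP IP. The GFP IP arrays were the lowest and the other 4 arrays overlapped. Psmb5 was 3.50-fold lower in the GFP IP than in input (-1.81 ± 0.20, adjusted p = 0.00246), and its PABP1 difference from input was -0.03 ± 0.20 (adjusted p = 0.919).

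Psmb6 stood at 9.17 and 8.81 in input, 9.57 and 9.30 in the PABP1 IP, and 8.30 and 7.88 in the GFP IP. Its arrays did not overlap between groups. It was lower in the GFP IP than in input by -0.90 ± 0.24 (adjusted p = 0.0252) and than in the PABP1 IP by -1.35 ± 0.24 (adjusted p = 0.00521), but the difference from input was 0.02 with cyclic loess and with spike-in scaling, and passed under none of the 5 other scalings and background corrections. The difference from the PABP1 IP was 0.15 with quantile normalization and 0.23 with cyclic loess. Psmb7 stood at 4.58 and 4.41 in input, 5.39 and 5.13 in the PABP1 IP, and 3.32 and 3.34 in the GFP IP. It was higher than input in the PABP1 IP (0.77 ± 0.17, adjusted p = 0.0155) and lower in the GFP IP (-1.16 ± 0.17, adjusted p = 0.00463), with no overlap between groups. The PABP1 call of Psmb7 was lost with cyclic loess (adjusted p = 0.0612) and quantile normalization (0.0602).

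Transcription of proteasome genes is raised by NRF1, the product of Nfe2l1, through antioxidant response elements in their promoters. The 9-letter form TGACNNNGC of that element was searched on both strands in the 250 bases before each gene's start. RefSeq (GRCm38.p6) promoters were matched by symbol for 36 of the 43 genes. The motif was in 5 of them (13.9%), against 10.2% of 32851 promoters. A match is a description of the sequence only. The stretches that hold the 3 matches within 50 bases of the start are shown from 45 bases before the motif up to the base before the start, with the motif in capitals, because they include 2 catalytic subunits of the paragraphs above and the chaperone Psmd9. They are chr14:54617996-54618087 on the minus strand, chr11:70525303-70525356 on the plus strand and chr5:123228114-123228189 on the plus strand.
Psmb5: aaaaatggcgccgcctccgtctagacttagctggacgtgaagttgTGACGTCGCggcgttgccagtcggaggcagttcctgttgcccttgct
Psmb6: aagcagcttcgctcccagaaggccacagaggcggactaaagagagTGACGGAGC
Psmd9: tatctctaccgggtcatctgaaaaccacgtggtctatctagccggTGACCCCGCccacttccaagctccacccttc
The motif of Psmb5 ended 38 bases before the start, that of Psmb6 0 bases and that of Psmd9 22 bases. The other 2 matches, in Psmc6 and Psmd12, lay 218 and 238 bases away.

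The immunoproteasome subunits Psmb8, Psmb9 and Psmb10 replace the catalytic subunits in immune cells. All 3 were higher in the PABP1 IP than in input and lower in the GFP IP than in either. Psmb10 stood at 5.27 and 5.06 in input, 6.85 and 6.73 in the PABP1 IP, and 4.33 and 3.93 in the GFP IP. It was 6.35-fold lower in the GFP IP than in the PABP1 IP (-2.67 ± 0.20, adjusted p = 0.00051), the largest such difference of the 43 genes. Psmb9 stood at -1.07 and -1.27 in input, 0.27 and 0.11 in the PABP1 IP, and -1.90 and -1.84 in the GFP IP, a difference between the IPs of -2.06 ± 0.17 (adjusted p = 0.000542). For both genes the 3 groups did not overlap.

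Psmb8 was dim: it stood at -2.44 and -1.57 in input, -1.11 and -0.82 in the PABP1 IP, and -3.20 and -3.06 in the GFP IP. The GFP IP difference was -2.16 ± 0.32 from the PABP1 IP (adjusted p = 0.00283) and -1.12 ± 0.32 from input (adjusted p = 0.0318). The latter call was lost with quantile normalization (adjusted p = 0.133), with cyclic loess (0.114) and in 3 of 6 fits without 1 array. The Psmb8 call of the PABP1 IP against input (1.04 ± 0.32, adjusted p = 0.0404) was lost in 5 of those 6 fits. Against input in the GFP IP Psmb9 gave 0.22 with spike-in scaling, where the main value was -0.70, and its call was lost in 4 of the 6 fits. Psmb10 gave -0.43 (adjusted p = 0.0719) with normexp background correction, where the main value was -1.04 (adjusted p = 0.0101).

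Markers of some other cell types, but not of all those listed, were also lower in the GFP IP. Over all genes 41.3% were lower in the GFP IP than in the PABP1 IP and 36.6% lower than in input. In the PABP1 IP 30.1% of all genes were higher than in input. Of 10 immune and blood cell markers 9 had a probe and 6 were tested: 5 of the 6 were lower in the GFP IP than in the PABP1 IP, 5 of 6 were lower than in input, and 4 of 6 were higher in the PABP1 IP than in input. Their summed scaled signal was 12.7 and 24.3 in input, 37.0 and 47.4 in the PABP1 IP, and 4.21 and 8.97 in the GFP IP. Lyz2, the brightest of them, made up most of that sum on each array. Its own GFP IP difference from input did not pass (-1.61 ± 0.61, adjusted p = 0.0711). Ptprc, which encodes the leukocyte antigen CD45, was above background on 1 array, and H2-Aa on none. Of 7 cardiac and smooth muscle markers tested, 7 were lower in the GFP IP than in the PABP1 IP and than in input, with a summed signal of 79.5 and 96.3 in input, 174 and 189 in the PABP1 IP, and 29.6 and 39.7 in the GFP IP. Of 4 fibroblast markers tested, 4 were lower in both comparisons, with sums of 92.5 and 125 in input, 121 and 101 in the PABP1 IP, and 31.6 and 55.4 in the GFP IP. Of 3 neural markers tested, 1 was higher and 0 were lower in both comparisons. Of 3 visceral endoderm markers tested, 1 was lower than in the PABP1 IP and 0 were called against input. Of 10 germ cell markers tested, 6 were higher and 2 lower than in the PABP1 IP, and 7 were higher and 1 lower than in input. Of 8 interferon response genes 7 had a probe, 6 were tested, and 1 was higher and 2 lower in the GFP IP than in the PABP1 IP. Their summed signal was 48.8 to 56.7 on all 6 arrays, but such a sum is set by the brightest genes and hides single ones. The 2 lower genes were B2m (-2.82 ± 0.24) and Isg15 (-2.61 ± 0.60), and the 1 higher gene was Tapbp (1.10 ± 0.18). These differences are in recovered RNA, and in bulk samples such as these the cells that the RNA came from cannot be told. The part of other cells in the immunoproteasome values was not tested.

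The ATPases Psmc1 to Psmc6 form the ring that unfolds substrates and threads them into the core. In the PABP1 IP 0 of the 6 passed against input (limma, with 2 lower at an unadjusted p under 0.05), with differences from -0.65 (Psmc1) to 0.52 (Psmc3). That count turned on the scaling: quantile normalization and cyclic loess each called Psmc1, Psmc4 and Psmc5 lower (-1.10, -0.86 and -0.87 with quantile), normexp called Psmc2, Psmc3 and Psmc6 higher, and spike-in scaling called all 6 higher. With the GFP antibody 5 of the 6 were lower than in input, Psmc3 being the exception at -0.35, against 36.6% of all genes. All 6 were lower in the GFP IP than in the PABP1 IP by -1.68 (Psmc2) to -0.87 (Psmc3), against 41.3% of all genes. Between the IPs 1 of the 6 (Psmc2) was still lower with cyclic loess, and 2 (Psmc2 and Psmc5) with quantile normalization. Psmc1 stood at 6.18 and 6.00 in input, 5.68 and 5.20 in the PABP1 IP, and 4.35 and 4.61 in the GFP IP, and was lower in the GFP IP than in input by -1.61 ± 0.23 (adjusted p = 0.00407). Its difference between the IPs was -0.96 ± 0.23 (adjusted p = 0.015), and 0.02 with cyclic loess.

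Psmc5, another ATPase, stood at 5.27 and 5.13 in input, 4.69 and 4.62 in the PABP1 IP, and 3.72 and 3.33 in the GFP IP. Groups did not overlap, and the GFP IP was lower than input by -1.67 ± 0.19 (adjusted p = 0.00258). A second, dimmer Psmc5 probe gave 0.10 there. For Psmc6 the brightest probe was lower in the GFP IP than in input (-0.80 ± 0.15, adjusted p = 0.00995), while its second probe was 1.32 above input and 1.07 above the PABP1 IP.

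In the PABP1 IP against input 30.1% of all genes were higher and 23.8% lower. Of the 11 non-ATPase subunits Psmd1 to Psmd14, 3 were higher in the PABP1 IP than in input (Psmd6, Psmd8 and Psmd14) and 4 were lower. These 4 are Psmd1 and Psmd2, the large scaffold subunits at the base of the particle, and Psmd3 and Psmd11, which belong to its lid. The Psmd6 call was lost in each of the 6 fits that left out 1 array (adjusted p up to 0.226), and Psmd8 was the one of the 3 called higher with cyclic loess and quantile normalization. Of the same 11 subunits 6 were lower in the GFP IP than in input and 0 were higher (limma, also 0 at an unadjusted p under 0.05), but Psmd2 was higher with cyclic loess (0.68, adjusted p = 0.0275) and normexp (0.63, adjusted p = 0.0102), and Psmd2 and Psmd14 with the mean of a gene's probes (0.80 and 0.64). Between the IPs 7 were lower in the GFP IP and 2 were higher, against 3 and 4 with cyclic loess. Of all genes 41.3% were lower and 22.3% higher between the IPs. In the GFP IP against input 36.6% of all genes were lower and 18.5% higher.

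Psmd1 stood at 3.89 and 3.62 in input, 1.48 and 1.45 in the PABP1 IP, and 1.95 and 2.15 in the GFP IP. Both IPs were below input, by -2.29 ± 0.18 for PABP1 (adjusted p = 0.000974) and -1.71 ± 0.18 for GFP (adjusted p = 0.00224). The IPs differed by 0.58 ± 0.18 (adjusted p = 0.0343), a call lost in each of the 6 fits that left out 1 array. The difference reversed to -0.74 with spike-in scaling. Within the slide that holds all 3 groups, with 1 array of each IP, it was 0.67 and the call was lost. Psmd2 stood at 6.47 and 6.22 in input, 5.28 and 4.95 in the PABP1 IP, and 6.30 and 6.50 in the GFP IP. The PABP1 IP arrays were the lowest, and the GFP IP and input arrays overlapped. Psmd2 was lower in the PABP1 IP than in input (-1.23 ± 0.20, adjusted p = 0.00541) and higher in the GFP IP than in the PABP1 IP (1.28 ± 0.20, adjusted p = 0.00356), values that became 1.02 and -0.05 with spike-in scaling. A second, dimmer Psmd2 probe gave -0.13 in the PABP1 IP against input, which did not pass, and 1.67 between the IPs.

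Psmd3 stood at 9.46 and 9.38 in input, 8.32 and 8.55 in the PABP1 IP, and 9.23 and 8.55 in the GFP IP. Its PABP1 difference from input was -0.99 ± 0.26 (adjusted p = 0.0262), a call lost in 4 of 6 fits without 1 array, and 1.26 with spike-in scaling. Psmd11 stood at 6.98 and 6.85 in input, 6.33 and 6.17 in the PABP1 IP, and 6.47 and 6.29 in the GFP IP. It was lower than input in the PABP1 IP (-0.67 ± 0.17, adjusted p = 0.0214) and in the GFP IP (-0.53 ± 0.17, adjusted p = 0.0423), but 1.58 and 0.38 above input with spike-in scaling. The GFP IP call of Psmd11 was lost in each of the 6 fits without 1 array (adjusted p up to 0.21) and turned to 0.15 with cyclic loess, and its PABP1 IP call was lost in 3 of the 6 and with normexp (-0.20, adjusted p = 0.376). The IPs overlapped for Psmd11, and for Psmd3 the lower GFP IP array was level with the higher PABP1 IP array at this precision.

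Psmd8, a lid subunit, was the regulatory gene with the largest PABP1 recovery. It stood at 3.77 and 3.63 in input, 6.19 and 5.61 in the PABP1 IP, and 3.13 and 3.43 in the GFP IP, with no overlap between groups. It was 4.60-fold higher in the PABP1 IP than in input (2.20 ± 0.25, adjusted p = 0.0019) and lower in the GFP IP than in the PABP1 IP by -2.62 ± 0.25 (adjusted p = 0.000774).

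The ubiquitin receptor Psmd4 stood at 5.53 and 5.39 in input, 5.67 and 5.70 in the PABP1 IP, and 4.79 and 4.70 in the GFP IP. The GFP IP arrays were the lowest, by -0.72 ± 0.15 against input (adjusted p = 0.0133) and -0.94 ± 0.15 against the PABP1 IP (adjusted p = 0.00394); these values were 0.20 with spike-in scaling and 0.03 with cyclic loess, respectively. Psmd14 encodes the deubiquitinase of the lid. It stood at 4.22 and 4.07 in input, 4.88 and 4.82 in the PABP1 IP, and 3.94 and 4.05 in the GFP IP. It was higher than input in the PABP1 IP (0.71 ± 0.16, adjusted p = 0.0139), a call lost with cyclic loess (0.0991), with quantile normalization (0.085) and in 3 of 6 fits without 1 array, and its GFP IP difference from input was -0.15 ± 0.16 (adjusted p = 0.434).

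Psmd5, Psmd9 and Psmd10 are chaperones that assemble the ATPase ring and leave the finished particle. All 3 were higher in the PABP1 IP than in input and lower in the GFP IP than in the PABP1 IP. Of all genes 30.1% and 41.3% were so called. Psmd10 stood at 0.64 and 0.39 in input, 1.87 and 1.97 in the PABP1 IP, and 0.08 and -0.07 in the GFP IP. The PABP1 IP arrays were above the rest, by 1.40 ± 0.17 against input (adjusted p = 0.00221).

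Psmd9 stood at 1.91 and 1.81 in input, 2.65 and 2.57 in the PABP1 IP, and 0.95 and 0.73 in the GFP IP. It was the chaperone whose GFP IP call against input passed (-1.02 ± 0.16, adjusted p = 0.00554). The PABP1 calls of Psmd5 and Psmd9 were each lost in 3 of 6 fits without 1 array. Psmd5 stood at 2.53 and 2.41 in input, 3.32 and 3.05 in the PABP1 IP, and 2.17 and 2.30 in the GFP IP, where the difference between the IPs was -0.95 ± 0.17 (adjusted p = 0.00609) and -0.38 (adjusted p = 0.0902) with cyclic loess. Psmc3ip, the recombination factor, stood at 1.74 and 1.60 in input, 2.998 and 3.80 in the PABP1 IP, and 1.85 and 0.79 in the GFP IP. Its GFP IP arrays lay on either side of input and differed by more than 1 log2 unit, and it was higher in the PABP1 IP than in input by 1.73 ± 0.43 (adjusted p = 0.0215), a call lost in 3 of 6 fits without 1 array.

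The activators open the core gate without ATP. Psme1 (PA28 alpha), Psme3 (PA28 gamma) and Psme4 (PA200) are given in turn. Psme1 stood at 6.57 and 6.30 in input, 6.66 and 6.42 in the PABP1 IP, and 4.70 and 4.67 in the GFP IP. Input and PABP1 IP overlapped, and the GFP IP was lower than input by -1.75 ± 0.18 (adjusted p = 0.00223).

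Psme3 stood at 1.25 and 1.02 in input, 2.06 and 2.17 in the PABP1 IP, and 2.26 and 2.19 in the GFP IP. Both IPs lay above input, by 0.98 ± 0.17 for PABP1 (adjusted p = 0.00591) and 1.09 ± 0.17 for GFP (adjusted p = 0.00481), and differed from each other by 0.11 ± 0.17 (adjusted p = 0.572). The call of the GFP IP against input held under each of the 5 other scalings and background corrections. Against the PABP1 IP the difference was 0.56 (adjusted p = 0.0279) with cyclic loess and -1.21 (adjusted p = 0.0528) with spike-in scaling.

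Psme4, an activator with a known role in the removal of histones in male germ cells, stood at 6.997 and 6.82 in input, 4.89 and 4.69 in the PABP1 IP, and 5.38 and 5.81 in the GFP IP. The 3 groups did not overlap. It was 4.34-fold lower in the PABP1 IP than in input (-2.12 ± 0.21, adjusted p = 0.00141) and 2.50-fold lower in the GFP IP (-1.32 ± 0.21, adjusted p = 0.00563). The GFP IP call was lost with the mean of the gene's probes (-0.73, adjusted p = 0.052). Its dimmer probes gave 0.18 and -1.06 in the GFP IP against input, and -0.86 and -2.73 in the PABP1 IP against input. The IPs differed by 0.80 ± 0.21 (adjusted p = 0.0216). With spike-in scaling the PABP1 difference was 0.13 and the difference between the IPs was -0.53. The inhibitor Psmf1 (PI31) stood at -0.90 and -0.87 in input, 0.94 and 0.78 in the PABP1 IP, and -1.26 and -0.99 in the GFP IP. It was higher than input in the PABP1 IP by 1.74 ± 0.17 (adjusted p = 0.0014), and the GFP IP arrays were below input by a difference that did not pass (-0.24 ± 0.17, adjusted p = 0.272).

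**Figure D2:**
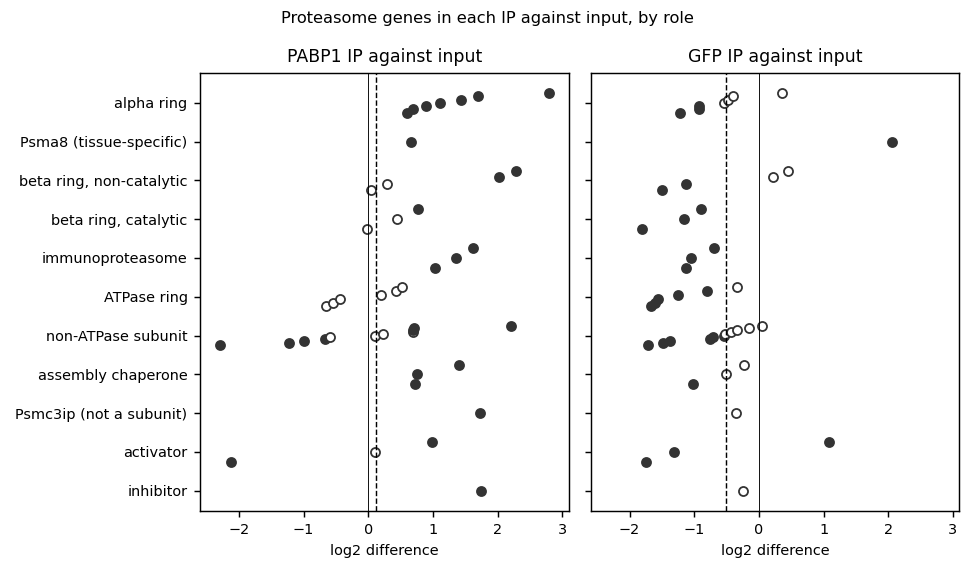
Each circle is a gene, placed by its role (vertical) and its log2 difference from input (horizontal) in the PABP1 IP (left) and the GFP IP (right). Filled circles passed an adjusted p of 0.05 and open circles did not; the dashed line is the median of all genes tested, 0.12 on the left and -0.51 on the right. All 7 alpha ring genes are filled and right of 0 on the left, while all 6 ATPase genes are open there; with cyclic loess 3 of the 7 passed, and 3 of the 6 ATPases were lower.

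The core and the regulatory particle were set beside each other by counts and medians, since genes are not replicates. In the PABP1 IP 14 of 18 core genes were higher than in input and 0 were lower, against 7 higher and 4 lower of 21 regulatory genes (limma, with 0 core genes lower at an unadjusted p under 0.05 too). The regulatory shares, 33.3% higher and 19.0% lower, were near the 30.1% and 23.8% of all genes. With cyclic loess the counts were 7 higher and 2 lower of the core, and 5 higher and 8 lower of the regulatory genes. All genes then stood at 26.4% higher and 28.6% lower. The core median was 0.97 and the regulatory median 0.23, a gap of 0.74. As to the GFP IP, 11 of 18 core genes and 12 of 21 regulatory genes were lower than in input, against 36.6% of all genes, with medians of -0.91 and -0.72. Between the IPs 17 of 18 core genes and 17 of 21 regulatory genes were lower in the GFP IP, against 41.3% of all genes. Their medians were -1.89 for the core and -1.001 for the regulatory genes, a gap of -0.88. With cyclic loess 11 core and 7 regulatory genes were lower and 1 and 4 were higher, with 27.5% of all genes lower and 30.9% higher.

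The gap between core and regulatory genes kept its direction in both comparisons that involve the PABP1 IP. For the PABP1 IP against input it was 0.74, and 0.605 with quantile normalization, 0.68 with cyclic loess and 0.50 with normexp. Median and spike-in scaling subtract a constant from each array and so cannot change the gap. Over the fits without 1 array it lay between 0.58 and 0.78. For the GFP IP against the PABP1 IP it was -0.40 with quantile normalization and -0.58 with cyclic loess. Without GFP IP replicate 2 it was -0.58 and without PABP1 IP replicate 2 it was -0.66. Within the slide that holds all 3 groups the gaps were 0.68 and -0.88. That slide holds both input arrays but 1 array of each IP. Its gap for the PABP1 IP against input is therefore that of the fit without PABP1 IP replicate 2. When only the standard subunits were counted, 14 of the core and 17 of the regulatory particle, they were 0.72 and -0.86. In the GFP IP against input the gap was -0.19, and 0.02 with both quantile normalization and cyclic loess.

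**Figure D3:**
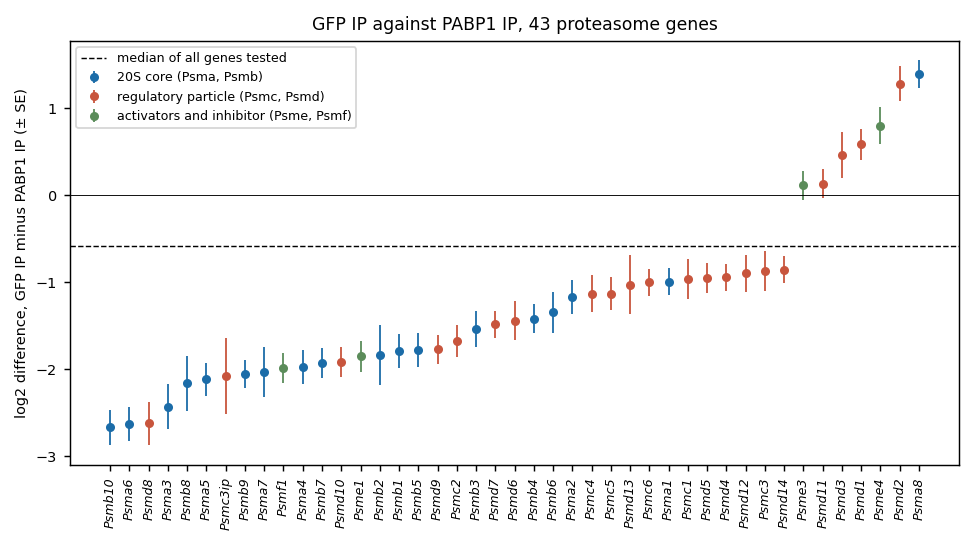
The 43 genes are ordered by their log2 difference between the GFP IP and the PABP1 IP (vertical axis), with the SE from limma as bars and colours for the core, the regulatory particle and the activators and inhibitor. The dashed line is the median of all genes tested, -0.58. The 17 core genes other than Psma8 lie below the dashed line, and the 7 genes above 0 are Psma8, 4 regulatory genes and 2 activators.

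For 17 of the 43 genes the array holds more than 1 probe, and 61 of the 65 probes passed the filter. Between the IPs, probes of 1 gene mostly shared a direction. The 2 probes of Psma4 gave -1.98 and -1.88, those of Psmc5 -1.13 and -1.15, those of Psmd14 -0.86 and -1.02 and those of Psmd2 1.28 and 1.67. Against input they differed more. The second probe of Psmd14 gave 1.43 in the GFP IP where the brightest gave -0.15, that of Psmd2 gave 1.54 where the brightest gave 0.05, and that of Psmd9 gave 0.44 where the brightest gave -1.02.

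With the PABP1 antibody the second Psmc5 probe was 1.25 above input, where the brightest gave -0.54, and the second Psmb3 probe was 1.03 above input, where the brightest gave 0.04. Psmf1 differed the other way, with 1.74 for the brightest probe and 0.21 for the other. Within the difference between the IPs, Psmc6 (-1.001 and 1.07), Psmd4 (-0.94 and 0.61), Psmd12 (-0.90, -0.27 and 0.31) and Psmd7 (-1.48, -0.96 and 2.18) had probes of opposite sign. The positive probes of Psmd4 and Psmd7 were dim, with a mean unscaled log2 signal of 3.95 and 3.50, against 12.04 and 11.39 for the brightest. The positive probes of Psmc6 and Psmd7 passed, while that of Psmd4 and the dimmer probes of Psmd12 did not. Whether these probes read different transcripts was not tested. With the mean of a gene's kept probes the counts between the IPs were 4 higher and 32 lower.

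**Figure D4:**
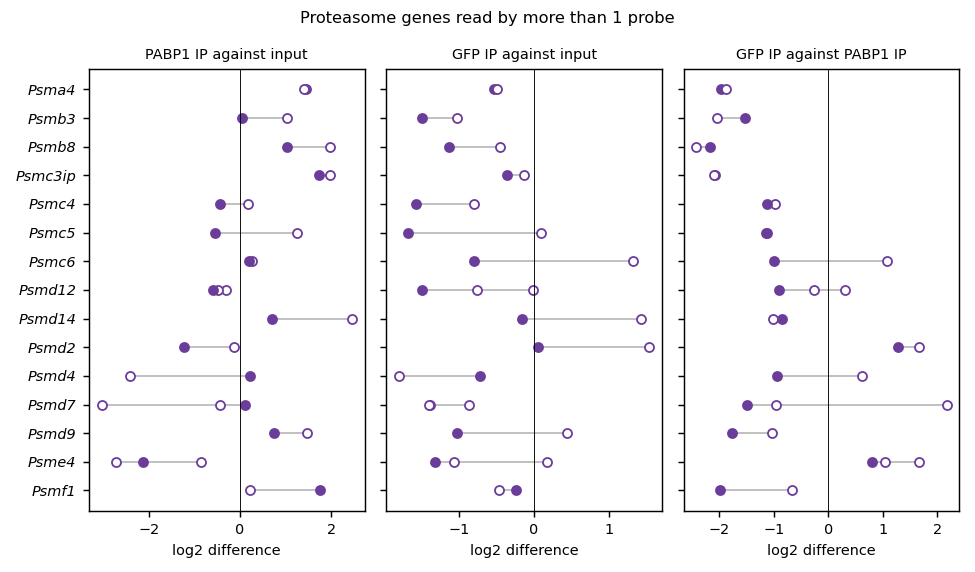
Each row is a proteasome gene with more than 1 probe that passed the filter, and each circle is a probe at its log2 difference in the comparison named above the panel. Filled circles are the brightest probe, which the counts use, and open circles the others. The probes of Psma4 nearly coincide in all 3 panels, while those of Psmc6 lie on opposite sides of 0 in the GFP IP against input (-0.80 and 1.32).

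The wider pathway was read through 42 listed symbols, older symbols included, of which 38 had a probe and were tested. They cover further subunits, assembly factors, shuttle factors, ubiquitin genes, the E1 enzymes and the NRF1 route. Between the IPs 11 were higher and 12 lower in the GFP IP than in the PABP1 IP, that is 28.9% and 31.6% against 22.3% and 41.3% of all genes, with a median of -0.22 against -0.58 for all genes. Against input 7 were higher and 11 lower in the GFP IP (18.4% and 28.9%, with 18.5% and 36.6% of all genes), and 8 were higher and 11 lower in the PABP1 IP (21.1% and 28.9%, with 30.1% and 23.8% of all genes).

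The largest differences of the pathway list between the IPs were in Ube3a, a ubiquitin ligase that binds the proteasome (3.39 ± 0.31, adjusted p = 0.000687), Uba6, a ubiquitin-activating enzyme (3.05 ± 0.20, adjusted p = 0.000469), and Zfand5, a proteasome-binding zinc finger protein (2.68 ± 0.24, adjusted p = 0.000681). Sem1, the smallest subunit of the lid, was lower (-2.11 ± 0.32, adjusted p = 0.0031). Against input, the GFP IP differences were largest for Zfand5 (2.78) and Akirin1 (1.97), whose family carries proteasomes into the nucleus, and among those that fell for Ufd1 (-1.91). The PABP1 IP differences were largest for Ube3a (-3.09), Uba6 (-2.32), Ecpas (-1.65) and Ddi2 (-1.32), the protease that activates NRF1. All of these passed. Nfe2l1 itself was higher in the GFP IP than in the PABP1 IP by 1.66 ± 0.27 (adjusted p = 0.00382).

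In the authors' deposited table, which holds group means of the same 6 arrays scaled to each array's median, 32 of the 43 genes could be matched by accession. Of the genes called here, the sign in the authors' deposited table was the same for 29 of 29 between the IPs, 22 of 22 for the PABP1 IP against input and 18 of 20 for the GFP IP against input. The exceptions were Psmb10 and Psma7, at 0.48 and 0.14 in the authors' deposited table and -1.04 and -0.92 here. The median of the 32 genes between the IPs in the authors' deposited table was -1.25, against -0.09 for all its rows. For the PABP1 IP against input it was 0.61, against -0.24 for all its rows. For the GFP IP against input it was -0.30, against -0.55 for all its rows. There the 32 genes thus lay above all rows, whereas here the 43 genes stood at -0.24 relative to all genes tested (0.31 without the filter on dim probes). For Psma8 the authors' deposited table gave 3.09 against input and 2.74 against the PABP1 IP.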

How the data were processed

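RNA was hybridised to 6 one-colour arrays (3 groups of 2). Per the file headers, Agilent Feature Extraction 9.1.3.1 wrote the deposited spot intensity and a background-subtracted processed signal. The authors' deposited table gives group means of signal, described in its header as scaled to each array's median, from which log2 ratios were taken; no test was run on it. Its score column entered no test. No count or depth exists for arrays, and the number of arrays limits precision.

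Control and outlier spots were left out, spots of a probe averaged on the log2 scale, and the array's 75th percentile subtracted. Names came from the files and RefSeq (GRCm38.p6), which named 22951 probes by accession and 4521 through a shared name. A gene was read by its brightest probe and kept if some group had that probe well above background on each of its arrays. The model was fitted with limma 3.58.1 in R 4.3.3 (lmFit, eBayes) to the 6 arrays together, with the group alone as a term, which leaves 3 residual degrees of freedom, and tested two-sided. Alternatives were quantile, cyclic loess, median and spike-in scaling, normexp background (offset 50), no filter, mean of probes, slide as a block, 1 slide alone, the replicate number as a block, and leaving out each array.

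Full values are given for up to 5 genes with the largest difference in each direction per comparison, past the threshold without overlap, and for a fixed set of catalytic, immunoproteasome, receptor, chaperone and activator genes. Of the wider pathway the 4 largest differences past the threshold are named per comparison, and Nfe2l1 because of the motif search. The genes and lists were chosen with earlier results of these data known. The fit was tested on simulated data. Replicate numbers are in the titles, but the numbers gave no steady pairing of the arrays. Some genes of the pathway and marker lists enter the counts but are not reported here by name.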

Additional observations from a re-analysis of the deposited data

How the results depend on the processing

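In simulated data with 2 arrays per group and few changed genes, log2 differences of 1 were seldom recovered. Far more genes passed in the data, which makes the adjusted threshold easier to reach. The simulation therefore does not give the power of these comparisons. A gene that did not pass is still not shown to be level. Under the 17 alternatives that give results for single genes, 1751 of 2107 gene results kept both their direction and their side of the threshold. Where a value moved, the cause was not tested.

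Cyclic loess gave 4 proteasome genes higher and 14 lower in the GFP IP against input, 14 higher and 11 lower in the PABP1 IP against input, and 7 higher and 20 lower between the IPs, with a median of -0.48 relative to all genes and a gap between core and regulatory particle of -0.58. Quantile normalization gave 13 lower in the PABP1 IP with a relative median of 0.23, and 22 lower between the IPs with a relative median of -0.46 and a gap of -0.40. The median of all probes gave 9 lower in the GFP IP and 3 lower in the PABP1 IP. Spike-in scaling gave 0 lower in the GFP IP, 40 higher and 0 lower in the PABP1 IP, and 0 higher between the IPs. With normexp 5 were higher in the GFP IP with a relative median of 0.11, and in the PABP1 IP 3 were lower with a relative median of 1.03 and a gap of 0.50. Without the filter, which adds dim genes to the test, 12 were higher and 3 lower in the PABP1 IP with a relative median of 1.18, 2 were higher between the IPs with a relative median of -1.09, and the GFP IP stood at 0.31 relative to all genes. The mean of probes gave 4 higher in the GFP IP.

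Called results of single genes turned their sign 27 times, in 13 genes. With quantile normalization they were Psma2 in the PABP1 IP (-0.065) and, between the IPs, Psma2 (0.21) and Psmb6 (0.15). With cyclic loess they were Psmb6 (0.021) and Psmd11 (0.15) in the GFP IP, and Psma2 (0.20), Psmb6 (0.23), Psmc1 (0.024), Psmd12 (0.14) and Psmd4 (0.034) between the IPs. In the GFP IP Psmd11 gave 0.043 when arrays were scaled to their median and 0.070 with normexp. Spike-in scaling turned Psmb6 (0.019), Psmb9 (0.22), Psmc6 (0.12), Psmd11 (0.38), Psmd4 (0.20) and Psmd6 (0.17) in the GFP IP, Psmd11 (1.58), Psmd2 (1.02), Psmd3 (1.26) and Psme4 (0.13) in the PABP1 IP, and Psmd1 (-0.74), Psmd2 (-0.046) and Psme4 (-0.53) between the IPs. With the mean of probes Psmc6 gave 0.26 in the GFP IP and 0.036 between the IPs. Calls of single genes were lost 158 times and gained 65 times over these alternatives, and lost 103 times and gained 3 times when 1 array was left out.

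When 1 array was left out, the count higher was 2 and the count lower 15 to 24 in the GFP IP against input, with a relative median of -0.43 to -0.18 and a gap of -0.19 to -0.07. In the PABP1 IP the counts were 11 to 20 higher and 3 to 5 lower, with a relative median of 0.44 to 0.59 and a gap of 0.58 to 0.78. Between the IPs they were 2 to 3 higher and 33 to 35 lower, with a relative median of -1.07 to -0.75 and a gap of -0.97 to -0.58.

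The replicate numbers gave no steady pairing of the arrays. Deviations of the arrays from their group means were correlated over genes between same-numbered arrays. The correlations were 0.20 (input and PABP1 IP), -0.06 (input and GFP IP) and -0.65 (PABP1 IP and GFP IP). PABP1 IP replicate 2 and GFP IP replicate 1 lay on another slide than the remaining arrays. Slide and replicate number therefore cannot be told apart in the value of -0.65. With the replicate block 2 genes were higher and 23 lower in the GFP IP, 20 higher and 4 lower in the PABP1 IP, and 3 higher and 35 lower between the IPs. A crossed pairing of the IPs, added after seeing the data, gave 4 higher and 36 lower. Slide as a block and the arrays of 1 slide alone kept every count over the 43 genes within 1.5 times its value; within that slide 1 regulatory gene was higher between the IPs in place of 2, Psmd1 losing its call.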
